A study of Mus musculus with 2 samples.

Results

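The RNase A superfamily is a group of small secreted ribonucleases, and 7 of its mouse genes were followed in the colon of WT and C3 KO mice: Rnase1, Ang, Ang2, Ang4, Rnase4, Rnase6 and Ear2. They were chosen by gene symbol among the main-category transcript clusters of the array, each cluster being a group of short probes for 1 gene or transcript. A cluster carried the symbol of 6 of the 7 genes, out of 30921 symbols and 33793 main clusters in all. No cluster carried the symbol or a RefSeq accession of Rnase4. Total RNA of the colon of untreated 16-week-old mice was hybridized to 2 Mouse Gene 2.0 ST arrays, 1 for FVB wild-type mice and 1 for mice on the FVB background that lack complement C3. Both genotypes came from crosses of C3 heterozygotes, and how many mice gave the RNA of each array was not given in the sources used here. The sample labels give the distal colon as the tissue, while the extraction step names the mid colon.

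Enzymes of this family cleave RNA after pyrimidine bases with a catalytic pair of histidines and a lysine, and are held together by disulfide bonds. Rnase1 is the pancreatic ribonuclease, made in bulk by acinar cells and secreted into the gut to digest RNA. The angiogenins are weaker ribonucleases: Ang promotes vessel growth and cleaves tRNA, and Ang4 is a microbicidal protein of mouse Paneth and goblet cells. Rnase4 is a secreted ribonuclease with a preference for uridine, Rnase6 is an antimicrobial ribonuclease of monocytes and macrophages, and Ear2 belongs to the eosinophil-associated ribonucleases of rodents.

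Values are levels after robust multi-array averaging (RMA) on the log2 scale, so that a difference of 1 is a doubling. Differences are C3 KO minus WT, with the direction taken from the array names in the deposited columns. A gene is called lower or higher when its fold reaches 1.5, a log2 difference of 0.585. Since each group has 1 array, the spread between mice was not measured, no test was possible, and no p-value is given. As a description of scatter in place of replicate error, each member's difference is set beside the standard deviation (SD) of the differences of all clusters whose mean level lay within 0.5 of its own. The 23 background probe sets, which match no mouse transcript, had medians of 4.20 (WT) and 3.99 (C3 KO) and spread between 1.45 and 8.56 in WT and between 1.48 and 8.11 in C3 KO.

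The promoters of the genes on which the results turn are shown because they separate members that share a sequence from members that do not. They are the 250 bases before the start of each gene in RefSeq (GRCm38.p6), 5′ to 3′ on the strand of the gene, all on chromosome 14. In Rnase1 (chr14:51146768-51147017, minus strand) capitals mark the motif GATAAG, and in Ang4 (chr14:51773591-51773840, minus strand) they mark CANNTG and TTTCCC, each on either strand. The window of Ang (chr14:51090827-51091076, plus strand) is also a window of Rnase4, because both genes start at the same base. A further window of Rnase4, from base 51095750, is not shown. In Ear1 (chr14:43819640-43819889, minus strand) and Ear2 (chr14:44102404-44102653, plus strand) capitals mark the bases that are not matched in the other.
Rnase1: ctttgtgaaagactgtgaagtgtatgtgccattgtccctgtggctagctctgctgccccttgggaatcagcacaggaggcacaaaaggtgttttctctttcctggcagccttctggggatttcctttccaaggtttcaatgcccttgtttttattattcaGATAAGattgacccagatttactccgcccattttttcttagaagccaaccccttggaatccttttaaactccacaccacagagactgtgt
Ang4: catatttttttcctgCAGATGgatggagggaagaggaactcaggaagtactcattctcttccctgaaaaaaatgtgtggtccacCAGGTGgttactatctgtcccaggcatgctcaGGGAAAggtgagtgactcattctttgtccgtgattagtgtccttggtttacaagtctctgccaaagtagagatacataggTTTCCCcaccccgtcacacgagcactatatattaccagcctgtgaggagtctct
Ang and Rnase4: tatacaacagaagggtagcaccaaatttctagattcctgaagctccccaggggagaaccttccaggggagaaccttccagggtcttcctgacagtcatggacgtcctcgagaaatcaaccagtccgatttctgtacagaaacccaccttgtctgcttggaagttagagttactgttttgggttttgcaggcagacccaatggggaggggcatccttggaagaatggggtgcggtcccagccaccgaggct
Ear1: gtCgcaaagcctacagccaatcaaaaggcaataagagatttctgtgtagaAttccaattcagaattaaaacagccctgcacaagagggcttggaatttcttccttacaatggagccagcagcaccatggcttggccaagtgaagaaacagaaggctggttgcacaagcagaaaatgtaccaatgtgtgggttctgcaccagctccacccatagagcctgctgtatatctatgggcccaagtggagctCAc
Ear2: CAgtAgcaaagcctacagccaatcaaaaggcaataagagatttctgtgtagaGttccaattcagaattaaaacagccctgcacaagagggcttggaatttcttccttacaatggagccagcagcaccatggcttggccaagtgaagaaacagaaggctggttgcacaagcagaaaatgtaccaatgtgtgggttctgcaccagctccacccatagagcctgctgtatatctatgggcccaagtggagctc
Over 248 pairs among 23 promoter windows of 19 family genes, the median identity was 46.0%, and 5 pairs reached 80%. These were Ang with Rnase4 and Ang5 with Ang6, at 100% each, Ear1 with Ear2 at 97.6%, Ear1 with Ear10 at 91.7% and Ear10 with Ear2 at 90.6%. Rnase1 and Ang4 were in no such pair. The nearest windows to that of Ang4 were those of Ang5 and Ang6, at 77.9%.

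The 4 motifs searched, on both strands of the window, were the E-box letters CANNTG, the TATA box letters TATAAA, the run TTTCCC and the GATA letters GATAAG, and they were chosen after the Rnase1 window had been seen. Rnase1 held GATAAG, with its first base at -90 counted from the start, and none of the other 3. In the family, Ear14 held GATAAG as well, at -31. Ang4 held CANNTG at -235 and -166 and TTTCCC at -134 and -54, and neither of the others, and none of these matches overlapped. GATAAG was in 6.55% of 32817 mouse promoters and in 13 of 32 promoters (40.6%) of a list of pancreatic acinar genes. Among these were Pnlip, Prss1, Ctrb1 and Cela1, which were lower in C3 KO, and Sycn, Rbpjl and Nr5a2, which were within 1.5-fold. It was not in the windows of Pnliprp1, Prss2, Reg1, Cpb1 and Pnliprp2, which were lower. A link of the motif to the differences was not tested. TATAAA was in 12.4% of all promoters and in 43.8% of the acinar ones, and in none of the family windows. CANNTG was in 66.2% and 87.5%, and TTTCCC in 21.9% and 28.1%. These are matches of letters, and no binding was measured.

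The arrays differed in genes of the genotype and of sex. C3 itself measured 8.15 in WT against 6.80 in C3 KO, and which part of the gene is deleted was not given in the sources used here. Xist, the RNA of the inactive X chromosome, measured 10.35 in WT against 3.81 in C3 KO, and the Y-linked genes Kdm5d, Eif2s3y and Ddx3y were at 3.56, 2.97 and 5.18 in WT and at 7.82, 7.86 and 7.68 in C3 KO. Pancreatic acinar genes other than Rnase1 were lower in C3 KO in 30 of 37 cases, against 1166 of all 30921 genes. Genotype, sex and acinar RNA in a sample cannot be told apart in any difference described here. Genes of surface colonocytes, which define the tissue, had median levels of 11.46 (WT) and 11.27 (C3 KO).

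Of the 6 members with a cluster, Rnase1 and Ang4 were lower in the C3 KO array, 0 were higher and 4 differed by less than 1.5-fold. In such bulk RNA, fewer cells of a type and less RNA per cell cannot be told apart. Of all main clusters 3.82% were lower and 3.66% were higher by this threshold. Among clusters with a mean level of at least 6, which the clusters of Rnase1, Ang4 and Ang reached, 1.65% were lower. The median difference was -0.09 over the 6 members and 0.00 over all main clusters. No member other than Rnase1 and Ang4 was past the threshold, and the nearest to it were Ang2 at 0.57 and Ang at -0.53.

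**Figure D1:**
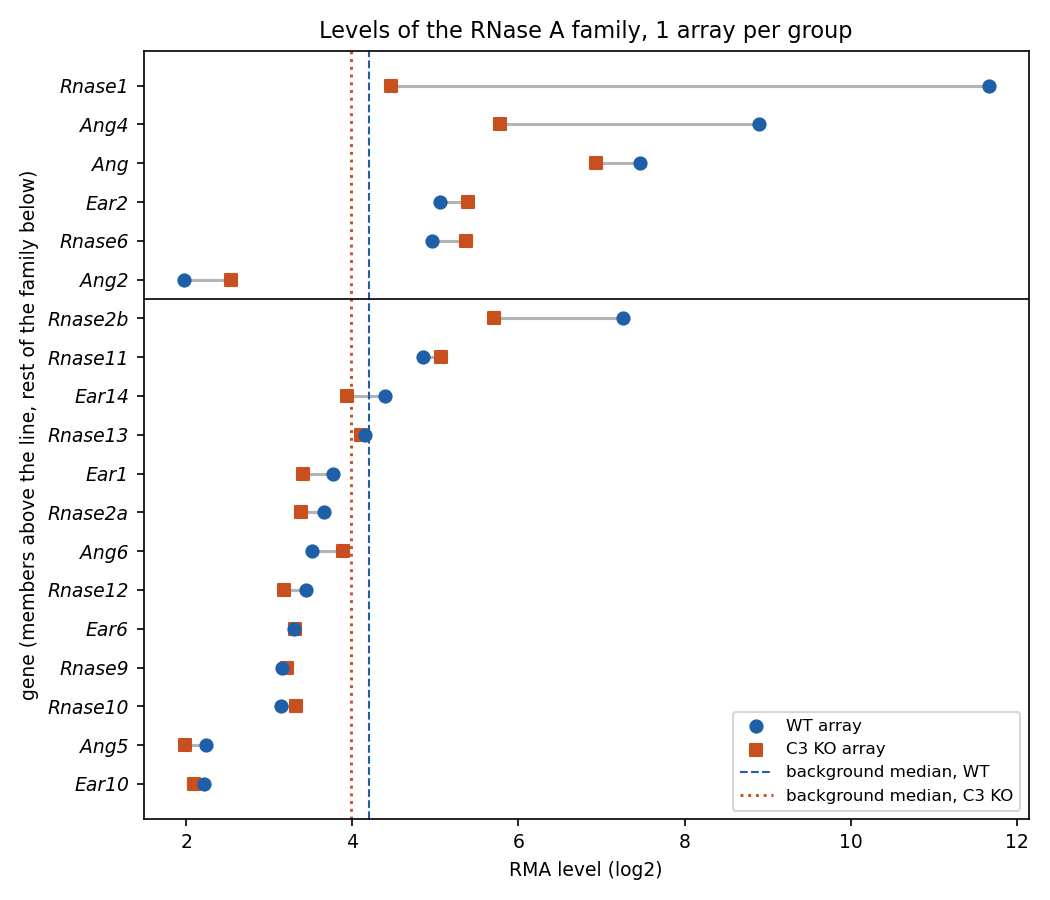
RMA level (log2, horizontal axis) of the 6 measured members (above the line) and of the 13 other family genes (below it) in the WT array (circles) and the C3 KO array (squares), with the background median of each array as a vertical line and no error bars since each point is 1 array. Rnase1 spans 11.66 to 4.46 and Ang4 8.89 to 5.78, while most other genes lie close to or below the background lines with their points nearly together.

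Rnase1, the digestive ribonuclease, reached 11.66 in WT but only 4.46 in C3 KO. The WT level was 7.45 above the background median and above all 23 background probe sets. The C3 KO level was 0.47 above the median, and 11 of the 23 background sets were brighter. The difference was -7.20, a 147-fold lower level, and as the C3 KO level was close to background the size of this fold is not exact. Clusters of like mean level had an SD of 0.59, and 11 of those 2964 clusters, Rnase1 among them, differed by at least as much. The cluster (chr14:51145002-51146767, minus strand, transcript NM_011271) has 25 probes, which the annotation gives as unique to it, and its bounds are those of the RefSeq gene.

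Ang4, the angiogenin of the intestinal epithelium, reached 8.89 in WT against 5.78 in C3 KO. The WT level was above all 23 background sets, and the C3 KO level was 1.79 above the background median with 9 of the 23 sets brighter. The difference was -3.11, an 8.63-fold lower level. Clusters of like mean level had an SD of 0.38, and 11 of 4110 differed by at least as much. Its 9 probes (chr14:51763878-51773590, minus strand, NM_177544) are also given as unique, although few in number compared with the 25 of Rnase1.

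Both genes were lower in C3 KO, Rnase1 by more. The difference of Rnase1 minus that of Ang4 was -4.09 on the log2 scale, a size that is not exact because the C3 KO level of Rnase1 was close to background. Among all main clusters, 17 were further lower than Rnase1 and 41 further lower than Ang4. Of the 17, 11 belonged to 8 genes of the pancreatic acinar list, and the other 6 were 2210010C04Rik and clusters without a symbol. Where C3 KO levels are close to background, as for Rnase1, this order depends on how low each probe set can read. Of the 41, 27 belonged to 24 genes of that list. The other 14 were Rnase1 itself, 2210010C04Rik, Gm5409, Serpini2, Pdia2, Xist, Tff2, Olfr764-ps1 and clusters without a symbol. A gene outside the list can still be pancreatic, as Rnase1 is.

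**Figure D2:**
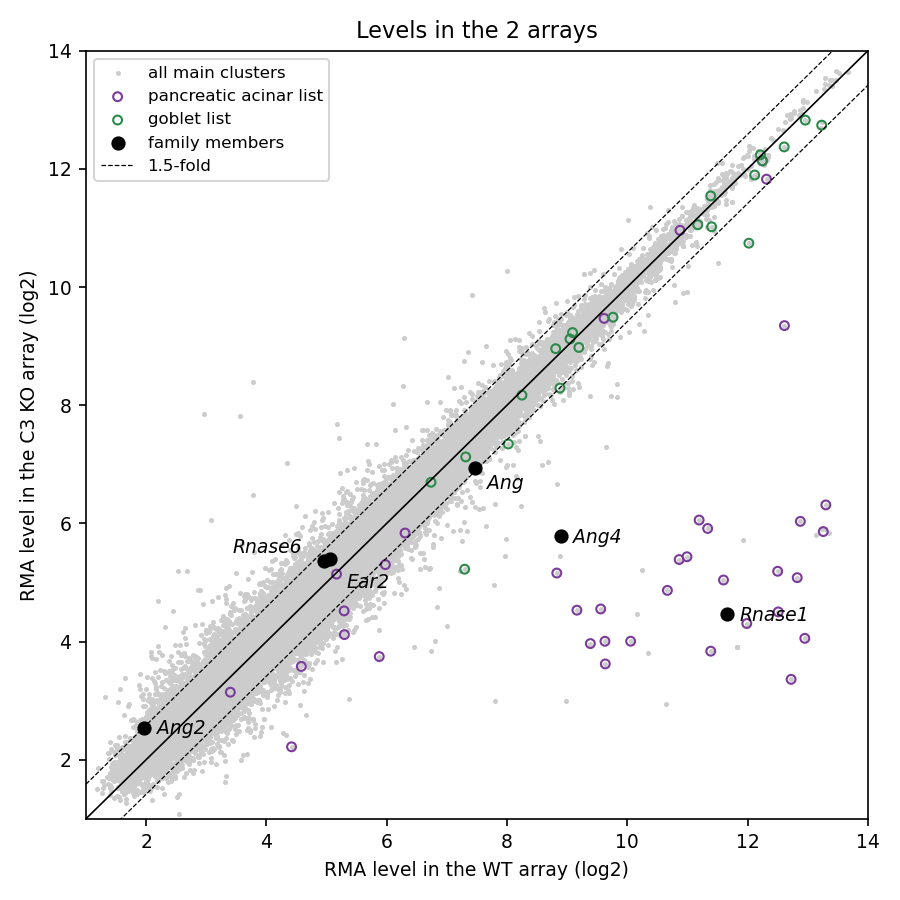
RMA level (log2) in the WT array (horizontal axis) against the C3 KO array (vertical axis) for all 33793 main clusters (grey) and for the genes of the pancreatic acinar list (purple rings), the goblet list (green rings) and the 6 measured members (black), with 1.5-fold lines dashed. Rnase1 lies among the acinar genes at the lower right. Ang4 lies closer to the diagonal than Rnase1, near the acinar gene Cckar, and some acinar genes lie closer to the diagonal still. The other 4 members lie inside the dashed lines.

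The cluster named Ang measured 7.46 in WT against 6.93 in C3 KO, a difference of -0.53 or 1.44-fold lower, short of the threshold. Both levels were well above the background medians, by 3.26 and 2.94, although 6 of the 23 background sets were brighter in each array. Clusters of like level had an SD of 0.38, and 189 of 4328 differed by at least as much. This cluster does not measure Ang alone. It runs over chr14:51091077-51106151 on the plus strand, which are exactly the bounds of the RefSeq gene Rnase4, whereas RefSeq Ang ends at base 51102009. Only 8 of its 21 probes were assigned to the Ang transcript (NM_001161731), and 13 were not. Rnase4 and Ang share a promoter and first exons, so the signal of Ang and Rnase4 cannot be told apart in this value. Rnase4 also has a further promoter window, from base 51095750, that is 44.9% identical to the window of Ang.

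Ang2, a mouse paralog of angiogenin, gave values of 1.97 (WT) and 2.54 (C3 KO), both below the background median of their array. The difference of 0.57, or 1.49-fold, lay just under the threshold. With 8 probes and levels 2.23 and 1.44 below the background medians, the 2 values do not show that the gene was detected. Of 2028 clusters of like level, 269 differed by at least as much.

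Rnase6, which macrophages produce, measured 4.97 in WT against 5.37 in C3 KO, a difference of 0.40 or 1.32-fold. Rnase6 was dim, 0.76 (WT) and 1.38 (C3 KO) above the background medians. Of the 23 background sets, 10 were brighter than Rnase6 in WT and 9 in C3 KO. Its cluster (chr14:51129068-51131122, plus strand) has 24 unique probes. Of 7103 clusters of like level, 1504 differed by at least as much, so differences of this size were common at this level. A list of 15 other macrophage genes had 0 higher and 0 lower genes, against 1074 higher and 1166 lower of all 30921 genes. A count of 0 among 15 genes is near that share. The median difference of the list was 0.12. Of the 15, Mrc1, the mannose receptor, was the highest at 0.51, and Adgre1, which encodes the macrophage antigen F4/80, the lowest at -0.40.

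Ear2 measured 5.05 in WT against 5.40 in C3 KO, a difference of 0.34 or 1.27-fold. Ear2 was dim too, 0.85 (WT) and 1.41 (C3 KO) above the background medians. Of the 23 background sets, 10 were brighter than Ear2 in WT and 9 in C3 KO. Its 21 probes (chr14:44102654-44103534, plus strand) are the only ones among the members that the annotation does not give as unique to their cluster, so its value may hold signal of related Ear genes. Its closest relative by promoter, Ear1, had unique probes and levels of 3.77 and 3.41, a difference of -0.36. Of 7192 clusters of like level, 2004 differed by at least as much as Ear2. Of 10 other eosinophil genes, 0 were higher and 2 were lower, Prg2 (major basic protein) at -0.65 and Cebpe, a granulocyte transcription factor, also at -0.65. The defining eosinophil gene Epx, eosinophil peroxidase, stood at 4.88 in both arrays, and the median difference of the list was -0.06. Its genes were dim as well, with median levels of 4.81 in WT and 4.58 in C3 KO. Over all 30921 genes, 1166 were lower and 1074 higher.

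The rest of the superfamily was mostly dim. Of 29 symbols searched, 19 had a cluster, and 2 of the others, Ear5 and Ear11, are older names that RefSeq gives to Rnase2b and Rnase2a. Of the 19 genes, 3 were lower (Rnase1, Ang4 and Rnase2b), 0 were higher and 16 were within 1.5-fold. Over all 30921 genes, 1166 were lower and 1074 higher. Levels of the 19 family genes were below the background median in both arrays for 10 and above it in both for 7. Among all 30921 genes, 5913 were below it in both. The family median was -0.12, and -0.05 without Rnase1 and Ang4.

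Rnase2b, an eosinophil-associated ribonuclease, was the only gene outside the members that passed the threshold. Its WT level of 7.25 stood against 5.70 in C3 KO, a difference of -1.55 or 2.93-fold lower. It has 9 unique probes, and 6 of the 23 background sets were brighter in WT and 9 in C3 KO. Its paralog Rnase2a measured 3.66 in WT against 3.38 in C3 KO, below the background medians.

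The genes with Ear symbols other than Ear2 had differences from -0.45 in Ear14 (4.39 in WT and 3.94 in C3 KO) to 0.01 in Ear6 (3.30 and 3.31). Ear10 measured 2.22 in WT against 2.10 in C3 KO. The minor angiogenins Ang5 and Ang6 were at 2.23 and 3.51 in WT and at 1.99 and 3.89 in C3 KO, all below the background medians. They have identical 250-base promoter windows, and their differences were -0.24 and 0.38.

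The genes Rnase9 to Rnase13, several of which are known from the epididymis, were all within 1.5-fold. Rnase9 (3.16 in WT, 3.22 in C3 KO), Rnase10 (3.14 and 3.33) and Rnase12 (3.44 and 3.18) lay below the background median in both arrays. Rnase13 was close to it, at 4.16 in WT and 4.11 in C3 KO. Rnase11 lay above it in both, at 4.85 (WT) and 5.07 (C3 KO).

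All these genes lie on chromosome 14. For the counts that follow, the shares over all main clusters were 3.82% lower and 3.66% higher. From Rnase10 to Rnase13 there were 14 family clusters, of which 3 were lower and 0 higher, and 16 other clusters, of which 1 was higher (4930597G03Rik) and 2 were lower (Vmn2r89 and Gm17079). The WT levels of these last 3 were 2.76, 3.57 and 3.54, below the background median. Rnase1 and Rnase2b lie 15.5 kb apart, and Rnase6, on the other side of Rnase1 at 13.9 kb, differed by 0.40 in the opposite direction. Ang4 lies 617 kb beyond Rnase1. Of the 9 clusters between them that are not of the family, 6 were within 1.5-fold, 1 was higher and 2 were lower. Ear2 lies 6904 kb from this region in a group with Ear1, Ear10, Ang5 and Ang6, where 0 of 9 clusters passed the threshold. A pair of unnamed clusters there, with 25 probes each that are not unique, had identical values of 2.34 in WT and 1.90 in C3 KO.

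**Figure D3:**
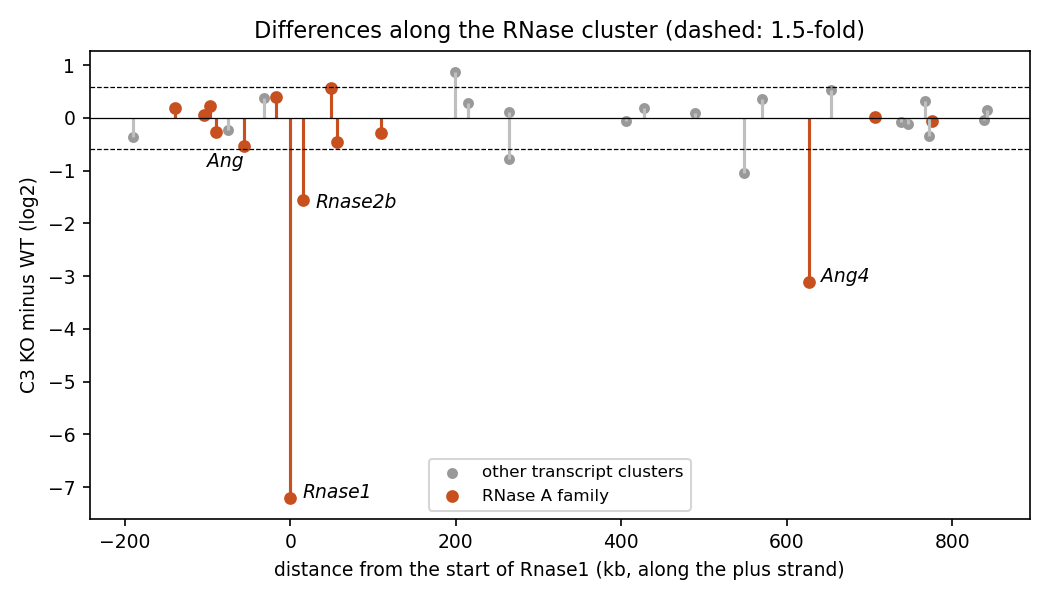
Difference C3 KO minus WT (log2, vertical axis) of each transcript cluster against its distance in kb from the start of Rnase1 along chromosome 14 (horizontal axis), with family genes in orange, other clusters in grey and 1.5-fold dashed. The 3 family genes below the lower dashed line, Rnase1 at -7.20, Rnase2b at -1.55 and Ang4 at -3.11, are the only family genes outside the dashed lines, and Rnase6 and Ang2, on either side of Rnase1 and Rnase2b, lie inside them.

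Genes of angiogenin partners, of the ribonuclease inhibitor and of other ribonucleases did not pass the threshold. Of 8 genes listed as partners or as other ribonucleases, 0 were higher and 0 were lower, against 1074 higher and 1166 lower of all 30921 genes. A count of 0 among 8 genes is near the share over all genes. Rnh1, the cytosolic inhibitor that binds ribonucleases of this family, measured 8.22 in WT against 7.95 in C3 KO. Plxnb2, reported as a receptor of angiogenin, was at 10.18 and 10.13. The lysosomal ribonucleases Rnaset2a and Rnaset2b were at 10.65 and 10.67 in WT and at 10.71 and 10.69 in C3 KO. Rnasek measured 8.21 in WT against 8.26 in C3 KO. Endou was at 4.43 and 4.17, Dicer1 at 8.14 and 8.11, and Drosha at 7.52 and 7.51.

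Rnase1 was set beside 37 other genes of pancreatic acinar cells. Of these, 30 were lower and 0 were higher, with a median difference of -5.42, against 1166 lower and 1074 higher of all 30921 genes and a median of 0.00. The measured difference was larger than that of Rnase1 for 8 of the 37, Pnlip (pancreatic lipase, -9.36), Cel (-8.90), Cpb1 (-8.01), Ctrl (-7.74), Pnliprp1 (-7.68), Reg1 (-7.55), Amy2a5 (pancreatic amylase, -7.40) and Cpa1 (-7.31). The C3 KO levels of Pnlip (3.36) and Reg1 (3.84) were below the background median, and those of Cel (4.06) and Pnliprp1 (4.31) were close to it, so the order of these genes and Rnase1 is not exact. The 7 acinar genes within 1.5-fold were Sycn, Rbpjl, Reg2, Nr5a2, Klk1, Dnase1 and Spink1, the last a trypsin inhibitor at 10.88 in WT and 10.96 in C3 KO. By level in both arrays, the 5 genes nearest to Rnase1 were Pnliprp1, Prss2, Reg1, Cpb1 and Pnliprp2, at Euclidean distances of 0.36, 0.58, 0.68, 0.85 and 1.07 log2 units. The measure rests on 2 arrays and on levels of different probe sets, which are not comparable between genes, so it describes these values and shows no likeness of expression. The summed linear level of the acinar list was 16.69 in WT and 13.61 in C3 KO on the log2 scale. The part of pancreatic tissue in the differences of Rnase1, Ang4 and Rnase2b was not tested.

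Ang4 was set beside other genes of goblet and Paneth cells. Of 21 goblet genes, 4 were lower and 0 higher, with a median of -0.19, against 1166 lower and 1074 higher of all 30921 genes. None of the 21 was as far below its WT level as Ang4. The 4 were B3gnt6, a mucin glycosyltransferase (-2.07), Retnlb, the resistin-like beta protein (-1.28), Spdef, a goblet transcription factor (-0.68), and Galnt12 (-0.59). Muc2, the main secreted mucin, measured 13.23 in WT against 12.74 in C3 KO, a difference of -0.49. Tff3 and Bcas1 had the highest differences of the list, 0.16 and 0.15, and both were within 1.5-fold.

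Of 22 Paneth genes, 6 were lower and 0 higher, with a median of -0.38, against 1166 lower and 1074 higher of all 30921 genes. Only Clps, pancreatic colipase, was further lower than Ang4, at -5.42, and it stands on the acinar list too. Itln1, intelectin, came next at -2.01 (7.22 in WT and 5.20 in C3 KO), followed by Nupr1, Defa24, Defa17 and Reg3a at -0.87 to -0.63. The levels of Reg3a, 3.18 and 2.55, were below the background median in both arrays and do not show that it was detected. Paneth cells belong to the small intestine, and 3 of the 22 genes were below the background median in both arrays. Lyz1, Paneth lysozyme, measured 5.37 in WT against 5.18 in C3 KO, and Mmp7, the protease that activates defensins, was at 5.35 and 5.44. Pla2g2a, the secreted phospholipase, was at 8.31 and 8.14, and Nupr1 at 9.04 and 8.17. The summed linear level of the goblet list was 15.73 in WT and 15.47 in C3 KO on the log2 scale, and that of the Paneth list was 12.07 and 10.27 with Clps included. Clps, at 11.34 in WT and 5.91 in C3 KO, was the brightest gene of the Paneth list in WT. The fall of that sum thus rests largely on this acinar gene.

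**Figure D4:**
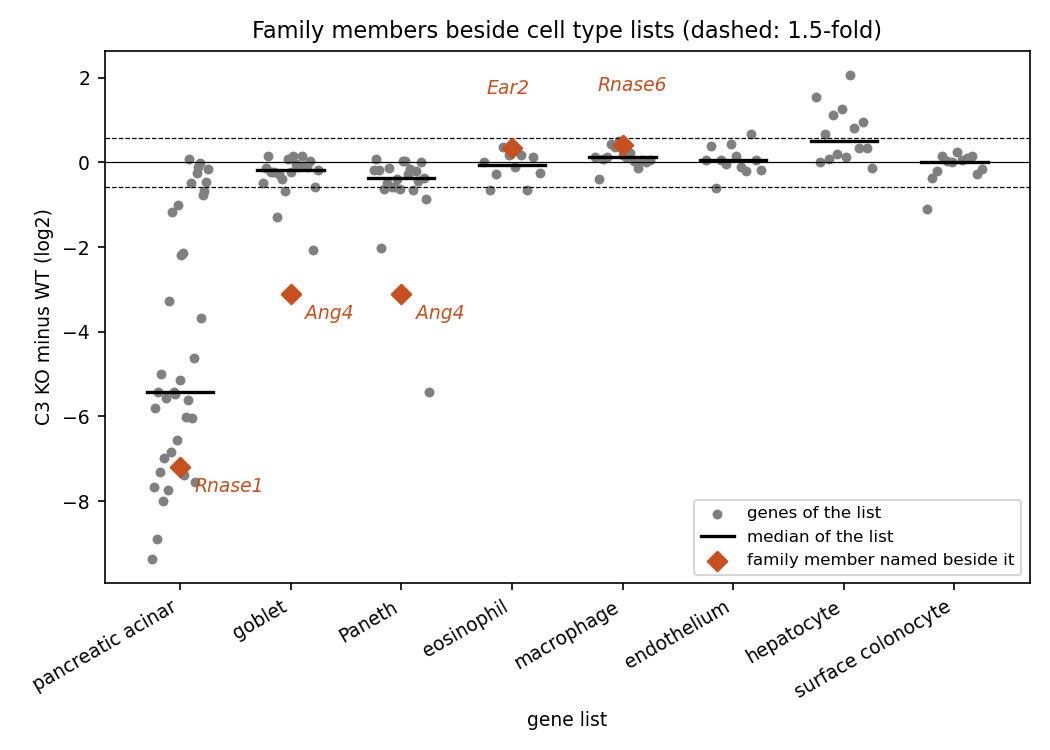
Difference C3 KO minus WT (log2, vertical axis) of the genes of 8 cell type lists (grey points, horizontal bar at the median, 1.5-fold dashed) and of the family member set beside a list (orange diamonds). Rnase1 at -7.20 lies below the acinar median of -5.42, and Ang4 at -3.11 lies below all goblet genes and all Paneth genes but Clps, while Ear2 and Rnase6 lie within the spread of the eosinophil and macrophage lists.

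The genes nearest to Ang4 by level in both arrays were Tff2, the spasmolytic trefoil peptide of gastric mucous cells (8.89 in WT and 5.45 in C3 KO), Cckar, the cholecystokinin receptor that acinar cells carry (8.83 and 5.16), Igkv3-4, Plet1 and Aqp12. Their distances were 0.33, 0.62, 0.84, 0.88 and 0.91 log2 units, over 2 arrays. The same limit on comparing probe sets holds for this list.

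Of the remaining lists, that of hepatocyte genes had the most genes past the threshold. Over all 30921 genes, 1166 were lower and 1074 higher. Of 12 endothelial genes, 1 was higher (Cldn5 at 0.68) and 1 lower (Kdr at -0.60), with a median of 0.05. Of 14 hepatocyte genes, 7 were higher and 0 lower, with a median of 0.50, and Alb, serum albumin, measured 7.36 in WT against 8.90 in C3 KO. Of 12 surface colonocyte genes, 1 was lower (Car1 at -1.10) and 0 were higher. Of 12 smooth muscle and 14 housekeeping genes, 0 passed the threshold.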

How the data were processed

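Colon RNA of WT and C3 KO mice was measured on Mouse Gene 2.0 ST arrays, 1 array per group. The log2 values were normalized by the authors at gene level with RMA in Affymetrix Power Tools and deposited for 41345 probe sets, and the deposited series table holds the same values. No counts exist for arrays, and the number of arrays limits the precision. The authors' tables of fold changes and enrichment were not used.

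Main clusters were matched to members by symbol, and the value of a gene with several clusters (657 symbols) was their mean. Differences, 1.5-fold calls, 12 gene lists and background medians were computed with Python 3.11.15, pandas 2.3.3, numpy 2.4.6 and statsmodels 0.14.6, promoter identity (global alignment) with Biopython 1.88, and figures with matplotlib 3.10.9. Coordinates are those of the deposited annotation, and sequences and gene bounds are those of RefSeq (GRCm38.p6). The calling step was checked on simulated data with 200 changed clusters and a scatter set smaller than that between the 2 arrays. This checks the code only and gives no error rate for the calls made here.

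The members and lists were chosen with earlier results of these data known. Named were the members, the rest of the family, the partner list, the 2 genes of a marker list that differed most in each direction (mean level at least 5), the 5 nearest genes and C3. The partner list at first held 1 further gene, which was taken out and is not reported here. Other genes were named after their values were seen. Alternatives were a 2-fold threshold, median and loess centring (fraction 0.3), minimum mean levels of 4 and 6, the series table, unique probes only and a floor at background.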

Additional observations from a re-analysis of the deposited data

How the results depend on the processing

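With 1 array per group, no array could be left out, and no paired analysis was possible because each group holds 1 sample. Of the values recomputed under an alternative, 92 kept their direction and their side of the threshold or moved little, 4 moved and 0 reversed a call. Part of the 92 could not have changed and is no measure of robustness. The series table holds the same values, and the floor at background altered no member but Ang2. Raising both levels of Ang2 to the background median of their array gave -0.22 in place of 0.57, which is the gap between the 2 background medians, since Ang2 lay below both. Requiring a mean level of at least 6 left 3 lower Paneth genes in place of 6, with 6 of the 22 genes counted. It left 0 higher endothelial genes in place of 1, with 8 of the 12 genes counted. Since 0 of the 10 eosinophil genes reached that level, the 2 lower ones could not be recounted. Loess centring gave -7.24 for Rnase1, -3.15 for Ang4 and -0.57 for Ang. Centring on the median shifted no value. Signal over background limits the fold of Rnase1, whose C3 KO level was near background, and gives no measure of Ang2.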
